A study of Mus musculus with 8 samples.

Results

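The genes described here write and maintain 2 silencing marks on chromatin: Uhrf1, Dnmt1, Dnmt3a and Dnmt3b for DNA methylation, and Ezh1, Ezh2, Eed and Suz12 for Polycomb. A probe belonged to the set when the gene name in the scanner files was one of these 8 symbols, which gave 12 probes of the 41174 on the array. Of the 12, 11 passed the filter on dim signals, among 25471 probes that passed in all. The genes were chosen with their spleen and blood values known, so the difference between the tissues is described for them and not tested.

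Expression was measured on single-colour microarrays in Ly-6C-high monocytes, the inflammatory subset of circulating monocytes, of untreated female C57BL/6 mice aged 8 to 12 weeks. One group came from the spleen (spleen 1 to 4) and the other from the blood (blood 1 to 4). The same antibodies were used for all 8 samples: the sort required high CD11b and high Ly-6C, and low staining for antigens of lymphocytes, NK cells, granulocytes, macrophages and dendritic cells. Each sample held 1000 cells, and their RNA was amplified before labelling. The labels name 4 mice, and by the design of the series blood and spleen cells were taken from each. No label ties a sample number to a mouse, so the tissues were compared as separate groups.

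DNA methylation is copied after each round of replication. UHRF1 binds hemimethylated DNA at the replication fork and brings in DNMT1, which methylates the new strand, while DNMT3A and DNMT3B set methylation on unmethylated DNA. Polycomb repressive complex 2 (PRC2) methylates a lysine in the tail of histone H3 through EZH1 or EZH2, which are alternative catalytic subunits, and needs EED and SUZ12 for its activity. EZH2 is the form typical of dividing cells, and EZH1 is the one kept in many resting cells.

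The probes that read the 4 contrasted genes are shown because both contrasts rest on them. The scanner files place them on the mouse build mm7. The Uhrf1 probes lay on chromosome 17, plus strand, probe 1 at chr17:54481483-54481542 and probe 2 at chr17:54481380-54481439, and the first 30 bases of each are printed. The Ezh1 probe lay at chr11:101300862-101300921 on the minus strand, and its first 30 bases are printed. The 60 bases of the Dnmt1 probe were spread over 369 bases (chr9:20784085-20784453, minus strand) and those of the Ezh2 probe over 896 bases (chr6:47568744-47569639, minus strand), so both bridge an intron and are printed whole. No exon or untranslated region annotation of that build was used here.
Uhrf1 probe 1: gcgagataaatgggtttcctcgatgaattt
Uhrf1 probe 2: catggaaggcagagatgtgttatcagttcc
Dnmt1 probe: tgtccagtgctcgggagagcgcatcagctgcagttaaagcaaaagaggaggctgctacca
Ezh1 probe: gaggagctgacttgacacaaaaacaaaaac
Ezh2 probe: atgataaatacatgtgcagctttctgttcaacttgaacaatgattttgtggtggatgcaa

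The promoters of 4 of the 8 genes held a string that the E2F factors, regulators of genes of the G1 to S transition, are known to bind. The strings searched were TTTCCCGC, TTTCGCGC, TTTGCCGC and TTTGGCGC on both strands, which differ from one another in their middle letters and do not overlap where they matched, in RefSeq windows from 250 bases before to 50 bases after each annotated start (build GRCm38.p6). All 8 genes had a window, 13 windows in all, since some genes have several starts. One of the 4 strings was in 4 of the 13 windows, those of Uhrf1, Dnmt1, Ezh2 and Suz12, and in 2.26% of the 32851 windows of all genes. Dnmt3a, Dnmt3b, Ezh1 and Eed had none of these letters in their windows. A match is a description of the sequence, and no binding was measured. The 4 windows with a match and that of Ezh1 are printed 5′ to 3′ on the gene's strand with the matched strings in capitals. Uhrf1 start 2 (chr17:56304063-56304362, plus strand) has its match at -185, counted in bases from the start. Dnmt1 start 3 (chr9:20952574-20952873, minus strand) has a match to the opposite strand at -219 and another at base 34 of the transcript. The Ezh2 window (chr6:47594981-47595280, minus strand) has its match at base 4 of the transcript. The Suz12 window (chr11:79992856-79993155, plus strand) has its match at -219, and the Ezh1 window is chr11:101226414-101226713, minus strand.
Uhrf1 start 2: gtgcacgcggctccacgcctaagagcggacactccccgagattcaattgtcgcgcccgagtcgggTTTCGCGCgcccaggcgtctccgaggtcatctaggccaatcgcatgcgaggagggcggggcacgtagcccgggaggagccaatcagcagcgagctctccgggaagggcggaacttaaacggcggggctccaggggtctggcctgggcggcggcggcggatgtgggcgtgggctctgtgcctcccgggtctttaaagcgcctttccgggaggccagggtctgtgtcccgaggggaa
Dnmt1 start 3: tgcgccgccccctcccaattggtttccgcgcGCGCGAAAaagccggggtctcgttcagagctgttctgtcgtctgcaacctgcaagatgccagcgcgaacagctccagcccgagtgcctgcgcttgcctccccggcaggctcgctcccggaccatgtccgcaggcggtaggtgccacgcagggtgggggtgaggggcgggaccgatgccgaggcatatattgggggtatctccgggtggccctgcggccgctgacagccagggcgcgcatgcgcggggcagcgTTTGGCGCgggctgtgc
Ezh2: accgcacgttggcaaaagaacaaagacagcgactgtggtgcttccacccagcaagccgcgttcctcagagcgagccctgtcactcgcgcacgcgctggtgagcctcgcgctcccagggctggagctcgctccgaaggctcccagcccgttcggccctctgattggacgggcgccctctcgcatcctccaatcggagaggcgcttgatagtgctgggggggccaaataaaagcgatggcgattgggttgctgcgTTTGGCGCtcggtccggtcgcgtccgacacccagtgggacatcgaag
Suz12: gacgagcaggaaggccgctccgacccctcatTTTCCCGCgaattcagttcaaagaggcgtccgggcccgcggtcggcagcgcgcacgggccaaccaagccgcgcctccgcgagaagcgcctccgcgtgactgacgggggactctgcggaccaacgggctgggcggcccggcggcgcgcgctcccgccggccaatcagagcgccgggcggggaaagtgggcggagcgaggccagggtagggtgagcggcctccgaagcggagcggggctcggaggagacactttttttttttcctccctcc
Ezh1: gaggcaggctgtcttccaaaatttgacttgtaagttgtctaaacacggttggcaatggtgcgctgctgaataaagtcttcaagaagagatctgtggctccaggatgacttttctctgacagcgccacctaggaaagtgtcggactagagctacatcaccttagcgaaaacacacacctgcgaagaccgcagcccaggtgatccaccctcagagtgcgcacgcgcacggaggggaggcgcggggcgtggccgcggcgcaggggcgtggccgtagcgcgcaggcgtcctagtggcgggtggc

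Values below are log2 signals of the authors' value table unless the scanner files are named, and each difference is spleen minus blood. Levels are compared between samples for 1 probe at a time and not between probes, since probes differ in brightness for the same amount of RNA. A level of 6.8 was taken as the background level: from there up, the scanner software scored at least 95% of probes as well above background. In bulk samples such as these, fewer cells that express a gene and less RNA of it per cell cannot be told apart. For blood 1, 2 and 3, the scanner file does not hold the array of the table column (rank correlations of 0.842, 0.852 and 0.872), whereas those of the other 5 samples correlated at 1 after rounding. Differences that include the 3 files in question are given for each gene as those of all 8 scanner files. Markers of monocytes that passed the filter, 8 of 10, had means of 11.58 to 12.21 in spleen samples and 12.04 to 12.24 in blood samples. Of these 8 genes, 2 were higher and 6 lower in spleen, with a median difference of -0.10. Csf1r, the receptor of the monocyte growth factor CSF1, averaged 13.30 ± 0.42 in spleen and 13.14 ± 0.39 in blood (SD, n = 4 each). Ccr2 differed by -0.41 ± 0.25 (SE), with 3 spleen and 4 blood values. The tissues did not overlap but nearly met, at 13.87 for the highest spleen and 13.89 for the lowest blood value. Its other probe gave -0.26.

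Uhrf1 had the largest difference of the set, and all of its spleen values lay above its blood values. Probe 1 read 8.66, 8.77, 10.44 and 9.55 in spleen 1 to 4, against 6.66, 6.76, 6.48 and 7.01 in blood 1 to 4. The nearest samples, spleen 1 and blood 4, were 1.65 apart, and spleen 3 was the brightest. The means were 9.36 ± 0.83 in spleen and 6.73 ± 0.22 in blood (SD, n = 4 each), a difference of 2.63 ± 0.38 (SE) or 6.20-fold. By size this difference was number 16 among the 25471 probes. In blood 1, 2 and 3 the value lay below the background level, so the fold is uncertain.

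Uhrf1 probe 2 did not pass the filter because the table holds 1 of its spleen values. It read 8.82 in spleen 4, against 7.44, 6.92 and 7.51 in blood 1, 2 and 4, and the cells of spleen 1, 2 and 3 and of blood 3 were empty. The spleen value was thus above each blood value, by at least 1.31. In the scanner files, where a value is log2 of the background-subtracted intensity minus the 75th percentile of the array, probe 2 read -2.35, -1.88, 0.93 and -0.42 in spleen 1 to 4, against -2.37 in blood 4. Spleen 3 was again the highest of these 5 matching arrays, and spleen 1 was level with blood 4. The files of blood 1, 2 and 3 read 3.37, -2.42 and -2.09, of which the first was above every spleen array. The spleen mean was 1.44 higher than blood 4 and differed by -0.55 from the mean of the other 3 blood files.

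The scanner files of blood 1 to 3 gave a different picture of Uhrf1. On the same scale, probe 1 read -0.73, -0.52, 1.45 and 0.38 in spleen 1 to 4, against 3.01, 0.42 and -2.26 in the files of blood 1, 2 and 3 and -3.51 in blood 4. The file of blood 1 was brighter than all 4 spleen samples and that of blood 2 was brighter than 3 of them. With all 8 scanner files the difference was 0.73, and with the 5 matching files, which leave blood 4 as the lone blood sample, it was 3.66. Against the mean of the files of blood 1, 2 and 3 alone, the spleen mean differed by -0.24. Spleen 4 and blood 4 were hybridised on 1 slide, and there the table gave 2.54.

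Dnmt1, the maintenance methyltransferase that UHRF1 recruits, differed less than Uhrf1 in the table but more with all 8 scanner files. It read 8.80, 9.25, 8.92 and 9.37 in spleen 1 to 4, against 7.90, 8.72, 9.12 and 7.52 in blood 1 to 4. Blood 3 lay inside the spleen range, so the tissues overlapped, and the blood samples were the more scattered of the 2 groups. The means were 9.08 ± 0.27 in spleen and 8.32 ± 0.73 in blood (SD, n = 4 each), a difference of 0.77 ± 0.36 (SE). Within the shared slide the difference was 1.84, and with all 8 scanner files it was 1.41, against 0.73 for Uhrf1.

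**Figure D1:**
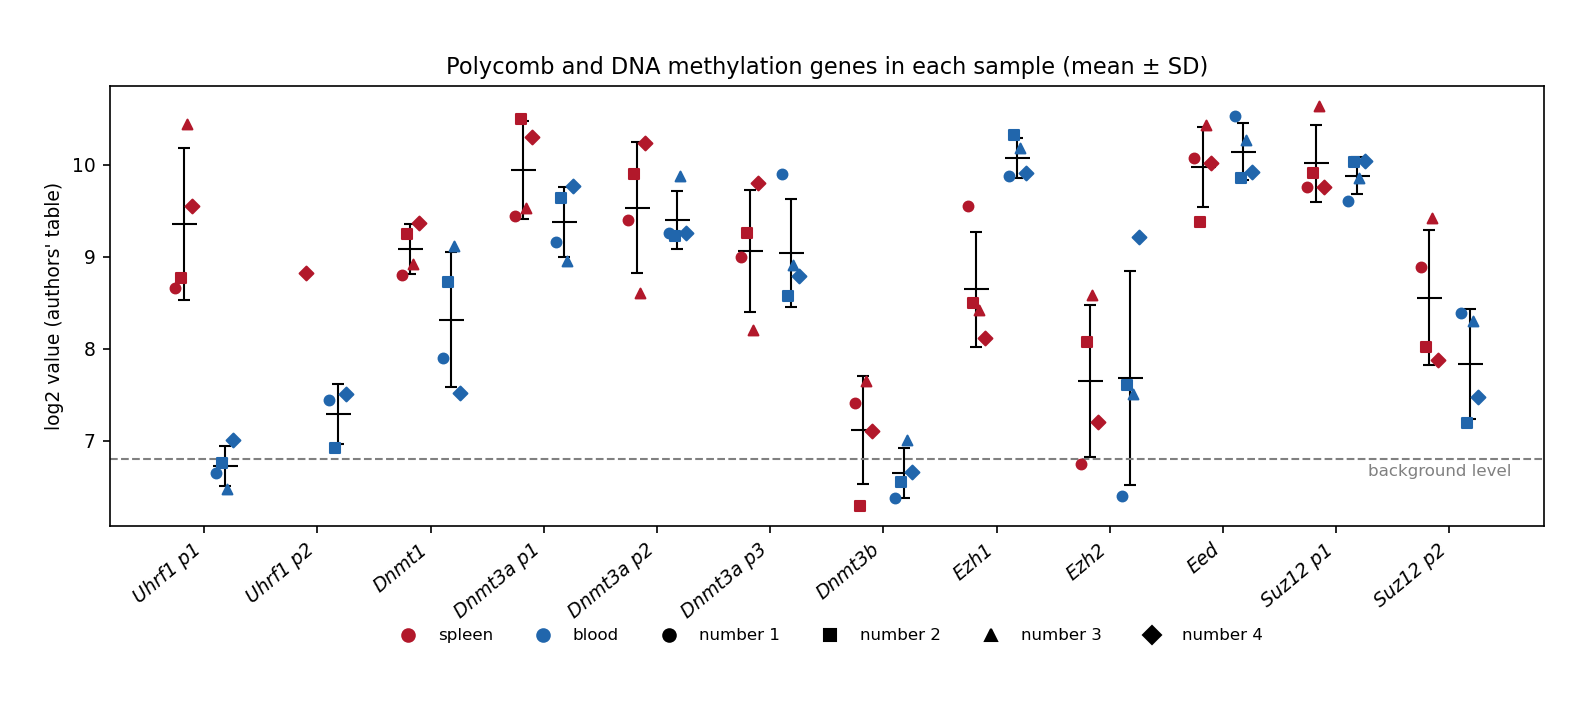
Log2 value (vertical axis) of each probe of the 8 genes in each sample, spleen in red left of blood in blue, with the marker shape giving the sample number, bars for the mean ± SD and a dashed line at the background level of 6.8. Uhrf1 probe 1 lies higher in all 4 spleen samples and Ezh1 lower in all 4, the other 9 probes with a difference overlap between tissues, and heights of different probes are not comparable.

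The contrast of Uhrf1 with Dnmt1 was taken within each sample, as the change of Uhrf1 probe 1 from its blood mean minus that of Dnmt1 from its own. It was 1.45, 1.11, 3.12 and 1.78 in spleen 1 to 4, against 0.34, -0.38, -1.04 and 1.08 in blood 1 to 4. Every spleen sample lay above every blood sample, but spleen 2 exceeded blood 4 by little. The mean contrast was 1.86 higher in spleen, so Uhrf1 differed by more than its partner in the table. Uhrf1 lay below the background level in blood 1, 2 and 3, so the size of the contrast and the correlation given below are uncertain. All 8 scanner files turned this order: the contrast was -0.68 there (-0.62 with normexp), because Uhrf1 differed by 0.73 and Dnmt1 by 1.41. Where blood 4 was the lone blood sample, it was 1.51 with the 5 matching scanner files, 0.79 with the 5 matching table columns and 0.70 within the shared slide. Among deviations from the tissue means, Uhrf1 and Dnmt1 had a Pearson correlation of -0.20 over the 8 arrays, which share their normalization.

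The de novo methyltransferases showed no separation of the tissues. Dnmt3a was read by 3 probes, and probe 1 read 9.45, 10.49, 9.53 and 10.30 in spleen 1 to 4, against 9.16, 9.63, 8.95 and 9.76 in blood 1 to 4. Its spleen mean was higher by 0.56 ± 0.32 (SE), with the ranges overlapping. Probe 2 read 9.40, 9.90, 8.60 and 10.23 in spleen, against 9.25, 9.22, 9.88 and 9.26 in blood, and probe 3 read 8.9987, 9.25, 8.20 and 9.80 in spleen, against 9.90, 8.58, 8.91 and 8.79 in blood. Both had spleen 3 as the lowest of the 8 samples, and their differences were 0.13 ± 0.36 and 0.02 ± 0.39 (SE). Deviations of probes 2 and 3 correlated at 0.64 over the 8 arrays and those of probes 1 and 3 at 0.24, so the 3 probes did not follow one another closely. Dnmt3b was dim, at 7.42, 6.30, 7.65 and 7.11 in spleen 1 to 4, against 6.38, 6.56, 7.01 and 6.66 in blood 1 to 4. One spleen value and 3 blood values lay below the background level, and the difference was 0.47 ± 0.31 (SE). With all 8 scanner files the sign turned for Dnmt3a probe 1 (-0.40), probe 2 (-0.67), probe 3 (-0.07) and Dnmt3b (-0.65).

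Ezh1 was the one probe of the set whose spleen values all lay below its blood values. It read 9.545, 8.50, 8.42 and 8.12 in spleen 1 to 4, against 9.88, 10.32, 10.18 and 9.91 in blood 1 to 4. Spleen 1 came within 0.33 of blood 1, and the other 3 spleen samples lay more than 1 unit below the blood range. The means were 8.64 ± 0.62 in spleen and 10.07 ± 0.21 in blood (SD, n = 4 each), a difference of -1.43 ± 0.32 (SE), or 2.69-fold lower in spleen. By size the difference was number 200 among all probes. No value lay below the background level.

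The scanner files of blood 1 to 3 altered the size of this difference but not its sign. On the scanner scale Ezh1 read 0.58, -0.62, -0.71 and -1.0025 in spleen 1 to 4, against -2.45, 1.19 and 1.66 in the files of blood 1, 2 and 3 and 1.11 in blood 4. The file of blood 1 was below every spleen sample and the other 3 blood files were above every one. All 8 files gave a difference of -0.82, the 5 matching files -1.55, and the table within the shared slide -1.79.

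Ezh2, the alternative catalytic subunit, did not separate the tissues. It read 6.75, 8.07, 8.59 and 7.20 in spleen 1 to 4, against 6.40, 7.61, 7.51 and 9.22 in blood 1 to 4. The highest and the lowest of the 8 samples were both from blood, and spleen 1 and blood 1 lay below the background level. The difference was -0.03 ± 0.59 (SE), with a pooled SD within tissues of 1.01, larger than that of 95.5% of all probes and against a median of 0.466. Single samples decided the sign: the difference was 0.48 without blood 4, 0.27 without spleen 1 and 0.12 without spleen 4, and -0.46 to -0.06 without any 1 of the other 5. It was -0.41 with all 8 scanner files and -2.02 within the slide that blood 4 shares with spleen 4.

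The contrast of Ezh1 with Ezh2 was noisier than that of Uhrf1 with Dnmt1. The change of Ezh1 minus that of Ezh2 was 0.41, -1.96, -2.55 and -1.47 in spleen 1 to 4, against 1.09, 0.32, 0.28 and -1.69 in blood 1 to 4. Spleen 1 and blood 4 stood on the side of the other tissue, so the groups overlapped. The mean contrast was -1.39, and -0.41 with all 8 scanner files. It turned positive wherever blood 4 was the lone blood sample, at 0.30 with the 5 matching table columns, 0.70 with the 5 matching scanner files and 0.23 within the shared slide. Ezh1 was thus not shown to differ by more than Ezh2.

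**Figure D2:**
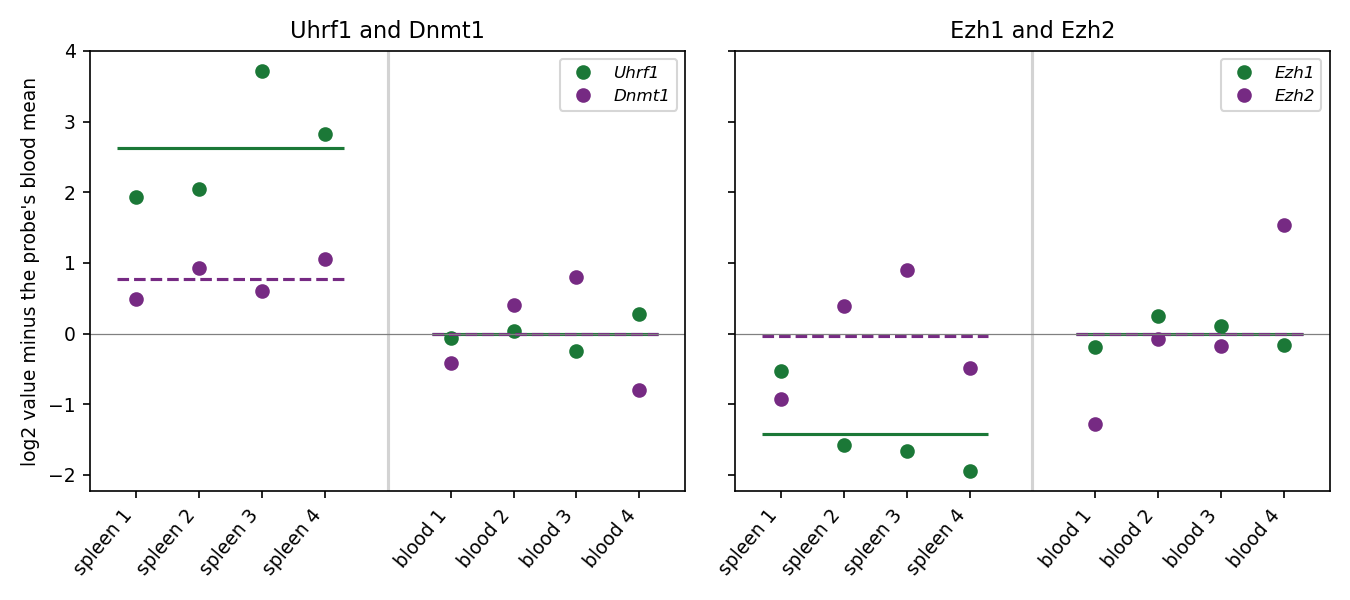
Change of Uhrf1 (green) and Dnmt1 (purple) at left, and of Ezh1 (green) and Ezh2 (purple) at right, in log2 units from the blood mean of the same probe, with 1 point per sample and lines at the tissue means. Uhrf1 lies above its blood mean in all 4 spleen samples by more than Dnmt1, and Ezh1 lies below its own in all 4 while Ezh2 scatters to both sides.

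Neither core subunit of PRC2 separated the tissues. Eed, which binds the methylated lysine and stimulates the complex, read 10.07, 9.38, 10.43 and 10.02 in spleen 1 to 4, against 10.52, 9.86, 10.26 and 9.92 in blood 1 to 4. The ranges overlapped and the difference was -0.17 ± 0.28 (SE), or 0.16 with all 8 scanner files. Suz12, a scaffold of the complex, was read by 2 probes. Probe 1 read 9.76, 9.91, 10.63 and 9.76 in spleen, against 9.61, 10.02, 9.85 and 10.04 in blood, and probe 2 read 8.89, 8.02, 9.42 and 7.88 in spleen, against 8.39, 7.19, 8.31 and 7.47 in blood. Both probes were brightest in spleen 3 and both overlapped between tissues, with differences of 0.13 ± 0.26 and 0.71 ± 0.41 (SE). With all 8 scanner files they were -0.39 and 0.82. Deviations from the tissue means of Suz12 probe 1 correlated at 0.79 with those of Uhrf1 and at 0.74 with those of Ezh2 over the 8 arrays, as descriptions of arrays that share their normalization. Those of the 2 Suz12 probes correlated at 0.28 with each other. Values of similar size but negative were found for Dnmt3a probe 1 with Eed (-0.80) and with Dnmt3b (-0.73).

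Across the 11 probes, 8 had a positive and 3 a negative difference, 6 were under 0.5 in size, and the median difference of all probes was -0.01. No probe of the set passed an adjusted p of 0.05 in limma's moderated test, in which 0 of 25471 probes (0%) passed. At an unadjusted p under 0.05 there were 2 members, Uhrf1 probe 1 and Ezh1, against 1419 probes (5.57%) in all, 766 (3.01%) higher and 653 (2.56%) lower in spleen. One member had groups that did not overlap with spleen higher, against 1.79% of all probes, and 1 with spleen lower, against 1.46%; both directions together made up 3.25% of all probes. These counts restate the contrast the genes were chosen on.

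The other genes of these pathways were taken from 6 chromatin lists, of which 56 genes passed the filter outside the set. None passed an adjusted p of 0.05 (limma, lowest adjusted p = 0.875), 32 were higher and 24 lower in spleen, and their median difference was 0.07. At an unadjusted p under 0.05, 1 gene was higher, Rybp, and 0 were lower, against 3.06% and 2.25% of the 17678 genes. Among 7 partners of PRC2 the extremes were Mtf2 (0.74) and Phf1 (0.29), which tether the complex to chromatin, and Aebp2 (-0.18) and Jarid2 (-0.17), accessory subunits. PRC1 is the complex that ubiquitinates histone H2A. Of its 20 subunits, by brightest probe, Rybp (0.88) and Cbx7 (0.75) had the largest positive differences. Scmh1 (-0.95) and Cbx8 (-0.55) had the largest negative ones. A further probe of Phc1 gave 1.44, against 0.42 by its brightest probe. Among 5 opponents of the Polycomb marks these were Asxl2 (0.41) and Asxl1 (0.07), partners of the H2A deubiquitinase Bap1, and Kdm6a (-0.51), a demethylase that removes the PRC2 mark, and Bap1 itself (-0.21).

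The lists of DNA methylation had medians of 0.11 for cofactors, 0.03 for demethylation genes and 0.25 for methyl-CpG readers, of which 6 of 8 were higher. Of 11 cofactors, Usp7 (0.49), the deubiquitinase that stabilises UHRF1 and DNMT1, and Uhrf2 (0.44), the paralogue of Uhrf1, led the positive side, and Dnmt3l (-0.25) and Trim28 (-0.15) the negative side. Uhrf2 thus differed by 0.44 ± 0.42 (SE), with 2 further probes at -0.37 and -0.24. Among 5 demethylation genes, Tet1 (0.14) and Tet2 (0.04) were positive and Tdg (-0.37), a glycosylase that removes oxidised methylcytosine, and Tet3 (-0.10) negative. Among 8 readers of methylated CpG, Zbtb4 (0.77) and Zbtb38 (0.72) were positive and Zbtb33 (-0.25) and Mbd3 (-0.18) negative. Several of these genes have probes that disagree in sign, Zbtb4 among them, whose second probe gave -0.71.

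The list of S phase and division stood apart from the chromatin lists in its median, 0.67 over 21 genes, of which 17 were higher and 4 lower in spleen. None passed an adjusted p of 0.05 (limma), and 10 were higher and 0 lower at an unadjusted p under 0.05. The tissues did not overlap for 7 that were higher, against 1.9% of all genes, and for 1 that was lower, against 1.41%. Top2a, a topoisomerase of dividing cells, differed by 3.09 ± 0.40 (SE, limma adjusted p = 0.0651, with no overlap of the tissues), but 3 of its 4 blood values were under the background level, which makes this size uncertain. Birc5, the mitotic protein survivin, differed by 2.94 ± 0.51 (limma adjusted p = 0.198). At the other end were Tk1 (-0.32) and E2f2 (-0.16). The mean of the list was 9.03, 9.60, 10.37 and 9.82 in spleen 1 to 4. In blood 1 to 4 it was 8.47, 8.76, 8.71 and 8.83. The spleen samples had the order of Uhrf1 probe 1, with spleen 3 the highest and spleen 1 the lowest. Spleen 3 was also the highest spleen sample by the mean of the neutrophil granule, red pulp macrophage, T cell, NK cell and platelet markers. For the progenitor, erythroid, B cell and monocyte markers it was not. A high spleen 3 was thus not particular to this list.

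**Figure D3:**
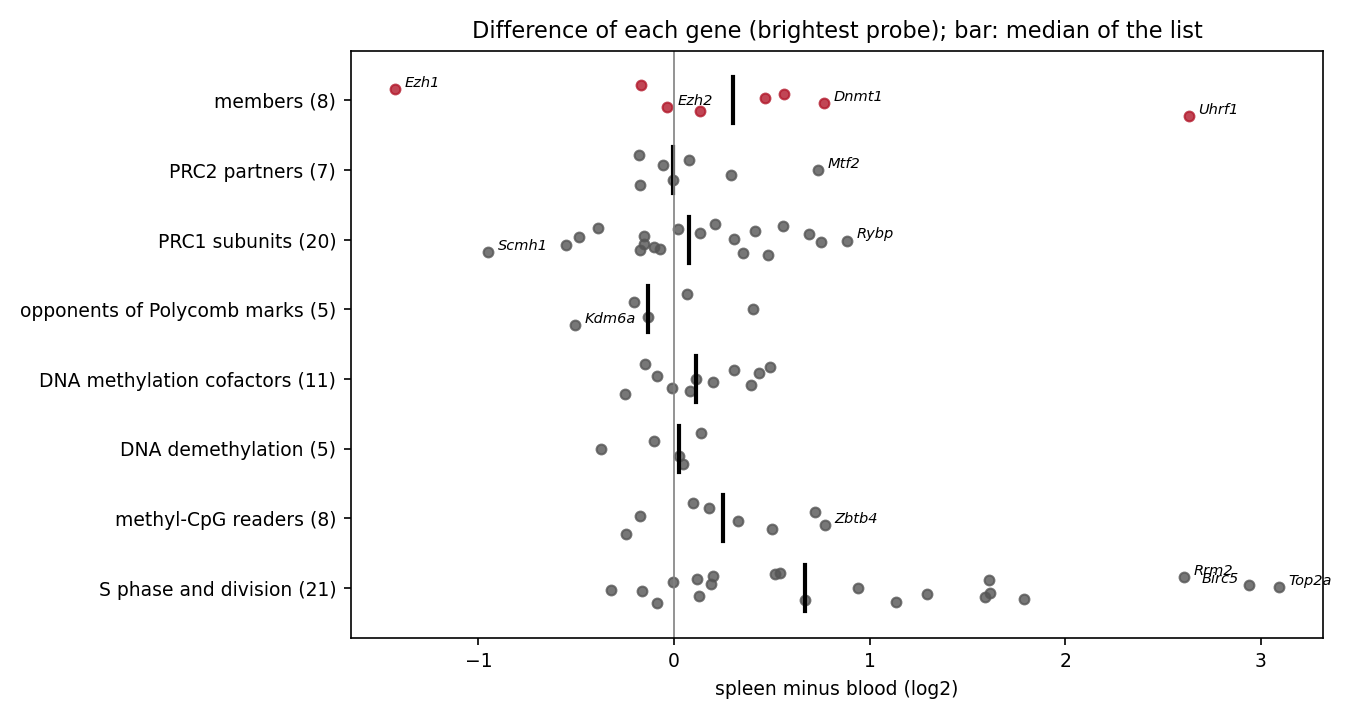
Difference of each gene (spleen minus blood, log2), 1 point per gene by its brightest probe, for the 8 genes in red and 7 other lists in grey, with the number of genes in brackets and a bar at the median of each list. The S phase and division list has the highest median, 0.67, and among the 8 genes Uhrf1 and Ezh1 stand away from the other 6.

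Markers of some other cell types also had unequal levels, although no gene of these lists passed an adjusted p of 0.05 (limma). Neutrophil granule genes had a mean of 10.01 to 10.92 in spleen samples and 7.29 to 8.36 in blood samples, with 9 of the 10 genes that passed the filter higher and a median of 1.08. S100a8 (5.575), Camp (5.57), Ltf (5.54) and Lcn2 (3.97) differed by more than Uhrf1, with no overlap of the tissues. Lcn2 had 3 blood values below the background level, and S100a8, Camp and Ltf 1 each, so these sizes are uncertain. Mmp9 (1.295), Mpo (0.87), Ctsg (0.58), Elane (0.56), Prtn3 (0.13) and Mmp8 (-0.08) differed less. The antigen Ly6g and Cebpe, 2 of the defining genes on that list, were not analysed here. Red pulp macrophage genes had a mean of 8.96 to 9.49 in spleen samples and 8.00 to 8.27 in blood samples, with 5 of 6 higher. Spic, the factor that defines these macrophages, averaged 9.37 ± 0.86 in spleen and 7.89 ± 0.48 in blood (SD, n = 4 each). Progenitor genes, 3 of 4 higher, overlapped between the tissues, with a mean of 7.50 to 8.32 in spleen samples and 7.26 to 7.93 in blood samples; Kit and Gata2 were below the background level on every array. The medians of the other lists were -0.25 for erythroid (1 of 6 genes higher), 0.09 for B cell (4 of 6), 0.27 for T cell (4 of 5), 0.31 for NK cell (2 of 2) and -0.19 for platelet genes (2 of 7). The platelet list had means of 8.07, 8.46, 8.66 and 8.10 in spleen 1 to 4, against 7.50, 9.63, 9.67 and 9.04 in blood 1 to 4. Its most uneven gene was Pf4, a chemokine of platelet granules, at 6.67 ± 0.37 in spleen and 9.33 ± 1.97 in blood (SD, n = 4 each). The part of these cells in the differences of Uhrf1 and Ezh1 was not tested.

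Genes whose levels were most like those of the 4 contrasted genes were ranked by the Pearson correlation over the 8 arrays among 15842 genes with a value in each. For Uhrf1 they were Adpgk (0.991), an ADP-dependent glucokinase, a gene listed as LOC629581 (0.971), a transcript listed as ENSMUST00000092045 (0.971), Ddx51 (0.968) and Rrm2 (0.967), a subunit of ribonucleotide reductase. Within the tissues, as deviations from each tissue mean, Adpgk correlated at 0.940 and Rrm2 at 0.838. For Ezh1 they were H60 (0.973), a ligand of an activating NK cell receptor, Ssx2ip (0.957), Lrrc8c (0.957), AK038018 (0.947) and Arhgap24 (0.938), with 0.751 to 0.898 within the tissues. The tissue difference itself enters the first of these correlations and not the second.

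**Figure D4:**
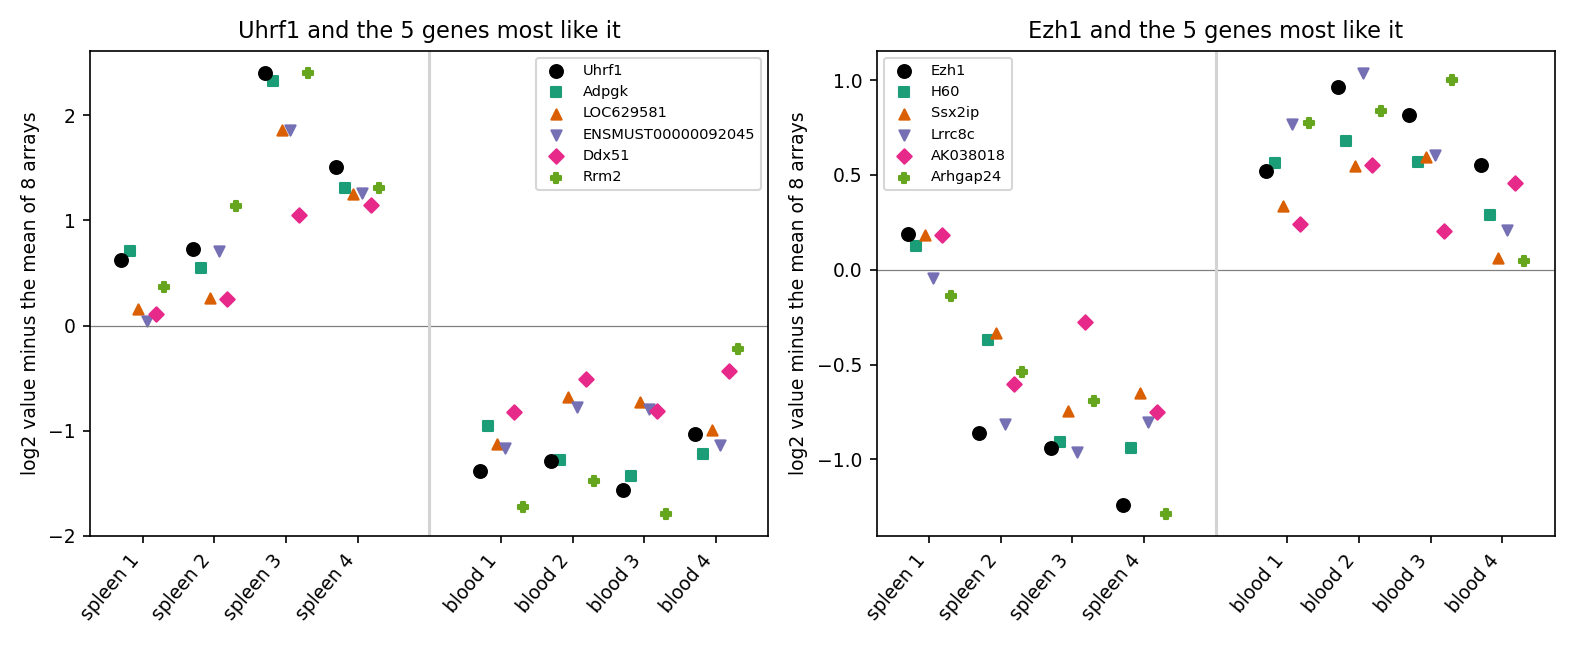
Log2 value minus the mean of the 8 arrays for Uhrf1 (left, black) and Ezh1 (right, black) and the 5 genes most like each, with 1 column of points per sample. The 5 genes like Uhrf1 are highest in spleen 3 or spleen 4 and low in all blood samples, and the genes like Ezh1 have spleen 1 as the spleen sample nearest to blood.

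For Dnmt1 and Ezh2 the likeness within the tissues was close to that over all arrays. Dnmt1 was followed by R3hdm4 (0.928), Mycl (0.903), AK042306 (0.896), Pilra (0.887) and Mfn2 (0.885), with 0.814 to 0.901 within the tissues. Ezh2 was followed by Cd209a (0.949), a C-type lectin receptor of dendritic cells and monocytes, Ssbp1 (0.949), Cops7a (0.926), Phf20 (0.922) and Eif5a (0.921), and as deviations from the tissue means the 5 correlated at 0.923 to 0.963. No gene of the set was among the 5 nearest to another. The search covered many genes and few arrays, and the values are given as a description.

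**Figure D5:**
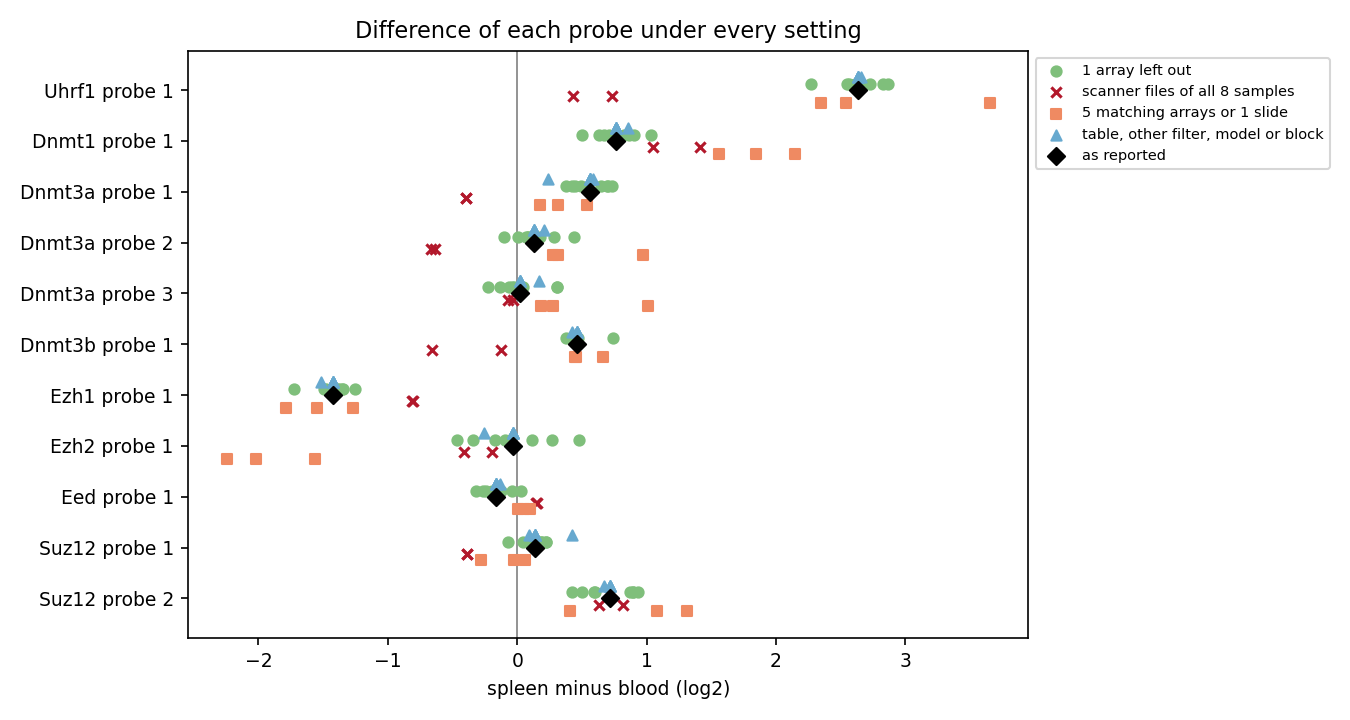
Spleen minus blood (log2) of the 11 probes as reported (black) and under each other setting: 1 array left out, other filters, models or blocks on the table, the 5 matching arrays or the shared slide, and all 8 scanner files. Uhrf1 stays positive and Ezh1 negative in every setting shown, Ezh2 spreads from -2.25 to 0.48, and the scanner files of all 8 samples turn the sign of the 3 Dnmt3a probes, Dnmt3b, Eed and Suz12 probe 1. Not shown is the spleen mean against the files of blood 1, 2 and 3 alone, where Uhrf1 differed by -0.24 and Ezh1 by -0.57.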

How the data were processed

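RNA of 1000 sorted cells per sample, with an integrity number of at least 8, was amplified from 5 ng and hybridised with the dye Cy3 to 1-colour Agilent arrays, per the labels. The authors deposited a table of log2 values for all 8 samples. The submitters' processing notes name limma for it, and its normalization is not given in the sources used here. In 5 samples the table has the rank order of the scanner's median signal, and its columns share 1 median (7.31), so it was read as quantile-normalized without background subtraction. The deposited scanner files hold spot intensity values from Agilent Feature Extraction 9.5.1.1, background-subtracted within each array and not normalized between arrays, per the file headers.

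The table was the main source because of the 3 mismatched scanner files. The background level, 6.8, is the lowest step of 0.1 from which at least 95% of the probes in each step were well above background in all 5 matching arrays, which had 26539 to 29571 such probes. Probes were kept at or above it on at least 4 of 8 arrays, with at least 3 values per tissue. Probes of a gene were kept apart for the 8 genes, and other genes were represented by the brightest probe. Gene names are those of the scanner files, updated through RefSeq for 55.7% of probes; all 12 member probes have the same symbol in both. Spleen was compared with blood with lmFit and eBayes (limma 3.58.1, R 4.3.3), adjusted by the Benjamini-Hochberg method over all probes kept, and the fit was tested on simulated data. The sources used here do not tie each sample to a separate mouse, so p-values cover only the spread among these arrays. The number of arrays limits the precision. The members, lists and tests were chosen with earlier results of these data known. Genes are named by rule: all members, the 5 genes most like each of 4 members, and the 2 largest positive and negative differences of each pathway list; marker genes are chosen examples. Alternatives covered the filter, the variance model, array weights, blocks, the source of the values, the slide and leaving out each sample.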

Additional observations from a re-analysis of the deposited data

Results flagged for a closer look

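Among 22 groups of 4 samples tested, 1 held an outlying sample: Dnmt3a probe 2 read 9.88 in blood 3, and the other 3 blood samples lay between 9.22 and 9.26. Chance alone flags about 1 in 20 such groups.

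Uhrf1 probe 2 did not enter the comparison, and its empty table cells were filled from the scanner files: the mean of the 4 spleen arrays was 1.44 higher than blood 4 on the 75th percentile scale. It rests on a lone blood array at -2.37, with spleen 1 at -2.35 and spleen 2 at -1.88. The files of blood 1, 2 and 3, which do not match the table, read 3.37, -2.42 and -2.09, and against their mean the spleen mean differed by -0.55.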

How the results depend on the processing

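Of 218 recomputed differences of the 11 probes, 66 equal the reported value, mostly by construction (another variance model, filter or block leaves a mean difference as it is). Of the other 152, 129 moved by less than 1 SD between replicates, 14 moved further and 9 turned sign by more than that spread. With all 8 scanner files (75th percentile, then normexp) the sign turned that far for Dnmt3a probe 1 (-0.40 and -0.40), Dnmt3a probe 2 (-0.67 and -0.64), Dnmt3b (-0.65 and -0.13) and Suz12 probe 1 (-0.39 and -0.39), and within the shared slide for Suz12 probe 1 (-0.28); 3 of the scanner files do not match the table. Leaving out 1 sample gave 2.27 to 2.86 for Uhrf1, -1.73 to -1.25 for Ezh1 and -0.46 to 0.48 for Ezh2.

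The number of probes past an adjusted p of 0.05, 0 as reported, was 7 with the mean over the probes of a gene, 9 under robust variance with an intensity trend, 5 with all 8 scanner files and also 5 with normexp, and 0 to 3 when 1 sample was left out (2 without spleen 1, 1 without spleen 2, 2 without blood 1, 3 without blood 2). The number of pathway genes past it was 1 with the mean over probes and 1 with the intensity trend (Top2a), and 0 to 1 when 1 sample was left out (Birc5 without spleen 1). The cause of these changes was not tested. Deviations of samples with the same number correlated at 0.0719 to 0.119, and those with different numbers at -0.101 to 0.0293. Each sample thus correlated best with its own number. The numbers were not taken as pairs because no label ties a number to a mouse. With a random replicate block 7 probes and 1 pathway gene (Top2a) passed, and with a fixed replicate block 1 probe. The slide comparison has 1 sample per tissue and gives no count.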
